A study of Rattus norvegicus with 21 samples.

Results

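The genes described here are 5 enzymes of glycolysis, Hk1, Hk2, Aldoa, Gapdh and Ldha, and the growth factor gene Vegfa, as measured in rat spinal cord. They were taken as every array spot whose annotated symbol was 1 of these 6 names. That gave 59 spots for 6 of the 4153 genes named on the array, of which 58 spots held values. Gapdh accounted for 51 spots that were averaged on each array and for 2 further probes, 3B05 and 3B07. Vegfa, Ldha, Aldoa, Hk1 and Hk2 were each read from 1 measured probe, and the second Vegfa probe had no value on any array.

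Behind these values are 21 2-colour arrays of rat total RNA, in 7 groups of 3, from a study of spinal cord injury and drugs against inflammation. The cultures were of spinal cord, kept for 4 hr, and were treated with CKIN, MP, acetaminophen (Acet, a painkiller), indomethacin (Indo, which inhibits both cyclooxygenases) or NS398 (which prefers cyclooxygenase 2), or with PBS vehicle (Injured 4 hr, unpooled), while Uninjured was freshly dissected cord. The labels do not spell out CKIN or MP, and they give no strain, age, dose or number of animals. Each array set its sample against a pool of cultures given vehicle: PBS for CKIN, MP, Acet, Injured 4 hr and Uninjured, ethanol for Indo and DMSO for NS398. What the labels call injury is cord taken out and cultured. Uninjured was dissected too, so it differs from Injured 4 hr in the 4 hr of culture after dissection. Later effects of the dissection and effects of the 4 hr in culture cannot be told apart. Nothing says that the 3 replicates of a group were separate animals or cultures, so the p-values measure the spread between these samples.

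Glycolysis turns glucose into pyruvate. Hexokinases trap glucose in the cell as its phosphate, aldolase splits the sugar, glyceraldehyde-3-phosphate dehydrogenase carries out the oxidising step, and lactate dehydrogenase A turns pyruvate into lactate, which lets the pathway run without oxygen. Vegfa makes blood vessels grow and leak. In low oxygen the transcription factor HIF-1 switches on Vegfa and many glycolytic genes, Ldha among them, which is why these genes are often read together in injured or cultured tissue. Gapdh is often used as a steady reference gene.

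HIF-1 binds the core letters ACGTG or GCGTG. RefSeq (rat build GRCr8) gave upstream windows of 250 bases for all 6 genes, and both strands were searched for these letters. Across all 33469 such windows in the table, 36.7% held at least 1 match. The windows of Ldha, Gapdh and Vegfa are shown because the results below turn on these genes. Capitals mark the matched letters, overlapping matches run together, and each window is read 5′ to 3′ on the gene's own strand and ends just before the annotated start.

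Ldha, chr1:106507842-106508091, plus strand: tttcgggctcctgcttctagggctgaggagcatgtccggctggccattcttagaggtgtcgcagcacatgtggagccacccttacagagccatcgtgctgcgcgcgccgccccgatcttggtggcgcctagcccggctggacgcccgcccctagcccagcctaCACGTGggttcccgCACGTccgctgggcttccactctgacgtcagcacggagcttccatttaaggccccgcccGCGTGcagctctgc
Gapdh, chr4:159652468-159652717, minus strand: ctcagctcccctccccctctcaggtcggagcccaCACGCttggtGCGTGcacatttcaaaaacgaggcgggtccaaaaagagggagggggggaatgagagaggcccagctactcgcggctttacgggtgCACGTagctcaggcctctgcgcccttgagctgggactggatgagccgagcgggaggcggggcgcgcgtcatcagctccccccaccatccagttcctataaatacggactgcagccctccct
Vegfa, chr9:22452604-22452853, plus strand: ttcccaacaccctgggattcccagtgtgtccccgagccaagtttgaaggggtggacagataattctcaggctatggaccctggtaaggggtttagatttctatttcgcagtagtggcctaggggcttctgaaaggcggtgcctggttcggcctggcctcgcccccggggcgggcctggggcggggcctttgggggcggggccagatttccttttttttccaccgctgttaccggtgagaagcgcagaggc

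The Ldha window held 4 matches, 2 of which overlap as the palindrome CACGTG, and the Gapdh window held 3. Neither Vegfa window held a match, and the one shown held 3 copies of the GC box GGGCGG, as did the Ldha window, while the Gapdh window held 0. At least 1 copy was in 30.5% of all windows, 1 Aldoa window held 4 and 1 Hk1 window held 2. Among the 3 Aldoa windows and the 2 Hk1 windows, 1 of each held 1 match, and the Hk2 window held 0. A match is a run of letters and not a shown binding site, and a window with no match says nothing of elements elsewhere.

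The values were log2 ratios of sample over pool, and the direction, taken from the order of the names in the labels, is likely but not stated. A ratio of 0 means the same signal as the pool, so ratios of different genes do not compare their levels. The arrays were not on a common footing as deposited. Array medians lay between -1.63 and 0.69 in the treated groups, between -2.27 and -2.13 in Injured 4 hr and between -4.13 and -3.11 in Uninjured, so ratios are given as deposited and after subtraction of the median of each array (centred). The arrays measured 3092 to 4916 probes each, and 10 of the 15 treatment arrays, all 3 of CKIN and of Indo among them, missed more than 1100 spots. Of all deposited values on the treatment arrays 10.3% equalled, to 4 decimals, the log2 ratio of 2 whole numbers up to 20, against 0.829% on the Injured 4 hr and Uninjured arrays, and 4 of 98 values of the single probes of the 6 genes did so on the treatment arrays, against 2 of 40 on the others. Spot intensities were not used here, so the errors rest on the spread between arrays.

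On a single array the Gapdh spots had an SD between 0.12 and 0.40. Their mean as deposited was 0.89, 0.57 and 0.52 in CKIN, 1.11, 1.29 and 1.45 in MP, and 1.34, 1.47 and 0.74 in Acet. It was 1.17, 0.72 and 0.05 in Indo, 0.29, 0.49 and 0.67 in NS398, -0.11, -0.04 and 0.03 in Injured 4 hr, and 0.04, -0.11 and 0.55 in Uninjured. As deposited, Gapdh was therefore near the pool in Injured 4 hr and Uninjured, whose ranges overlap, and above Injured 4 hr on all 15 treatment arrays.

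**Figure D1:**
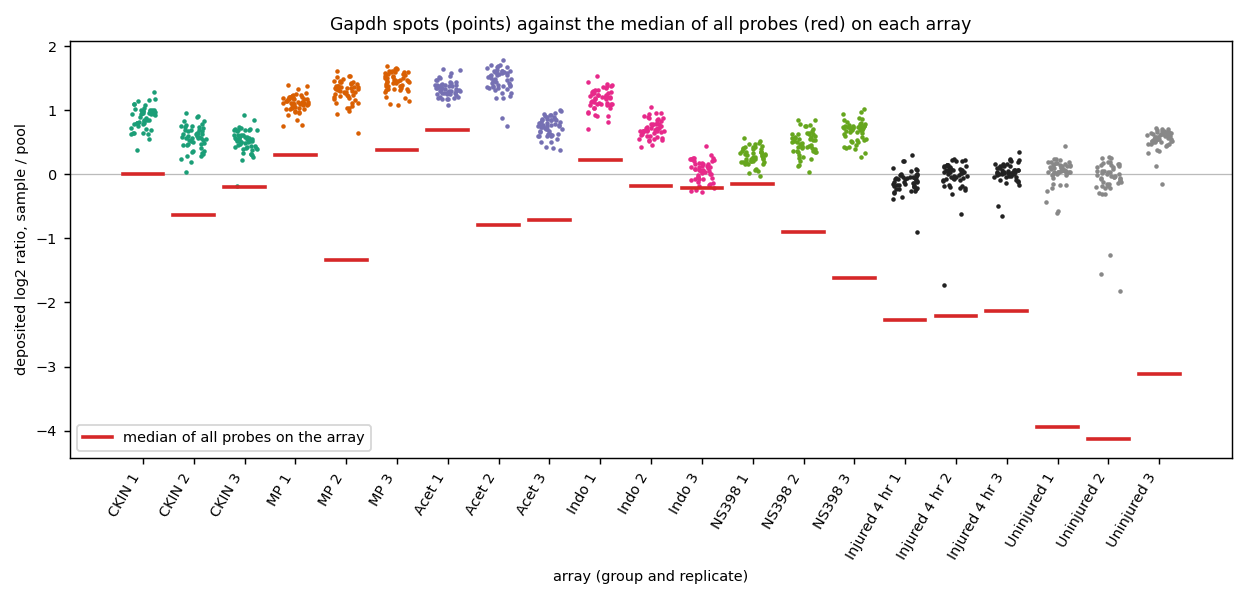
Deposited log2 ratio of each Gapdh spot (points, coloured by group) and the median of all probes (red line) on each of the 21 arrays, which run along the x axis by group and replicate. The Gapdh spots stay between -0.11 and 1.47 in array mean, while the array medians fall as low as -4.13 in Uninjured.

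Centring turned this picture round. Centred Gapdh was 0.89, 1.20 and 0.72 in CKIN, 0.81, 2.62 and 1.07 in MP, and 0.66, 2.25 and 1.45 in Acet. It was 0.94, 0.89 and 0.27 in Indo, 0.44, 1.39 and 2.30 in NS398, 2.16, 2.17 and 2.16 in Injured 4 hr, and 3.97, 4.03 and 3.66 in Uninjured. Uninjured stood above every other group, and the ranges of neighbours below it overlapped all the way from Indo (mean 0.70, the lowest) through CKIN, NS398, Acet and MP to Injured 4 hr (2.16). Among treatment arrays the centred Gapdh value was 0.27 to 1.20 on the 10 with many missing spots and 1.39 to 2.62 on the other 5.

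One further measurement bears on all centred values. The Injured 4 hr arrays set PBS cultures against a pool of PBS cultures, like RNA against like RNA, so no gene need differ there. Yet centred Gapdh was at 2.16 ± 0.01 (SD, n = 3), higher than 98.6% of the 4866 probes measured. Aldoa stood at 1.60 ± 0.04, Ldha at 1.57 ± 0.34 and Hk1 at 1.18 ± 0.28, at the percentiles 91.9, 91.6 and 86 of all probes. Vegfa at -0.09 ± 0.43 and Hk2 at -0.27 ± 0.13 lay lower, at the percentiles 46.5 and 29.5. The 4 enzymes thus shared an offset that Vegfa and Hk2 did not have. The mean centred ratio of the Injured 4 hr arrays was taken as a proxy of spot brightness, which these ratios do not allow to be verified, and a smooth curve of each array on it was subtracted. These values are called brightness-corrected, and by construction they lie near 0 in Injured 4 hr.

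Hk1 is the hexokinase that brain and cord use most, bound to mitochondria. Its centred ratio was 0.48, 0.01 and 0.34 in CKIN, 0.67, 1.68 and 0.92 in MP, and 0.24, 1.65 and 1.00 in Acet. It was 1.00, 1.08 and 0.75 in Indo, -0.33, 0.62 and 2.13 in NS398, 1.35, 1.33 and 0.86 in Injured 4 hr, and 3.15, 2.68 and 2.55 in Uninjured. Uninjured lay above all other groups, whose neighbouring ranges overlapped from CKIN at the low end up to Injured 4 hr. As deposited the order was another one: Hk1 averaged 0.89 ± 0.34 in Indo, 0.87 ± 0.48 in MP and 0.69 ± 0.35 in Acet, against -1.03 ± 0.22 in Injured 4 hr and -0.94 ± 0.47 in Uninjured.

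Hk2, the hexokinase that muscle uses and that low oxygen and insulin induce, had the thinnest data. It was measured on 14 arrays, on none of the CKIN arrays, 1 Indo array, 2 MP arrays and 2 NS398 arrays. Centred Hk2 was -0.81 and -0.30 in MP, -0.06, -0.58 and 0.29 in Acet, 0.25 in Indo, 0.62 and -0.42 in NS398, -0.15, -0.40 and -0.26 in Injured 4 hr, and -0.78, -0.34 and -0.27 in Uninjured. Every group with at least 2 arrays overlapped its neighbours in the order of levels. As deposited, Hk2 was -2.41, -2.61 and -2.39 in Injured 4 hr and -4.71, -4.47 and -3.38 in Uninjured, close to the medians of those arrays.

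Aldoa encodes the main aldolase of muscle and brain. Centred, it was 0.39, 0.84 and 0.18 in CKIN, 0.49, 2.49 and 0.75 in MP, and 0.58, 2.52 and 1.07 in Acet. It was -0.01, 0.63 and -0.18 in Indo, 0.20, -0.39 and 0.82 in NS398, 1.58, 1.64 and 1.56 in Injured 4 hr, and 3.43, 4.72 and 3.57 in Uninjured. As with Gapdh, Uninjured stood apart at the top, and from Indo up to Injured 4 hr each group overlapped the next. The deposited ratio averaged 1.12 ± 0.70 in Acet and 1.03 ± 0.20 in MP, with -0.61 ± 0.07 in Injured 4 hr and 0.18 ± 0.59 in Uninjured (SD, n = 3).

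Ldha encodes the muscle-type subunit of lactate dehydrogenase. Its centred ratio was -0.16, -0.44 and 0.23 in CKIN, -0.29, 2.19 and 0.21 in MP, and -0.28, 1.28 and 0.06 in Acet. It was 0.01, 0.62 and 0.43 in Indo, 1.49, 1.64 and 2.38 in NS398, 1.94, 1.50 and 1.26 in Injured 4 hr, and 2.36 and 1.90 on the 2 Uninjured arrays with a value. In Ldha the NS398 arrays overlapped those of both Injured 4 hr and Uninjured, so Uninjured did not stand apart. As deposited it averaged 0.95 ± 0.34 in NS398, -0.63 ± 0.28 in Injured 4 hr (SD, n = 3 each) and -1.39 ± 0.25 in Uninjured (SD, n = 2).

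Vegfa, in centred ratios, separated Uninjured from every culture. It was -1.36, -0.75 and -0.49 in CKIN, -0.03, 0.74 and 0.70 in MP, and -0.27, -0.08 and -1.47 in Acet. It was -1.01, -0.34 and -1.53 in Indo, -0.41, -0.49 and -0.11 in NS398, -0.35, 0.40 and -0.33 in Injured 4 hr, and 2.97, 2.80 and 2.63 in Uninjured. Uninjured lay above all 18 culture arrays, and the culture groups overlapped from Indo (mean -0.96) up to MP (0.47). As deposited, Vegfa was 0.27, -0.60 and 1.08 in MP, -2.62, -1.81 and -2.46 in Injured 4 hr, and -0.97, -1.34 and -0.49 in Uninjured, so Injured 4 hr was below Uninjured on this scale too. The treated groups all overlapped Uninjured as deposited, where the means of MP (0.25) and Acet (-0.88) lay above that of Uninjured (-0.93). Uninjured thus did not stand apart from the treated cultures on that scale.

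**Figure D2:**
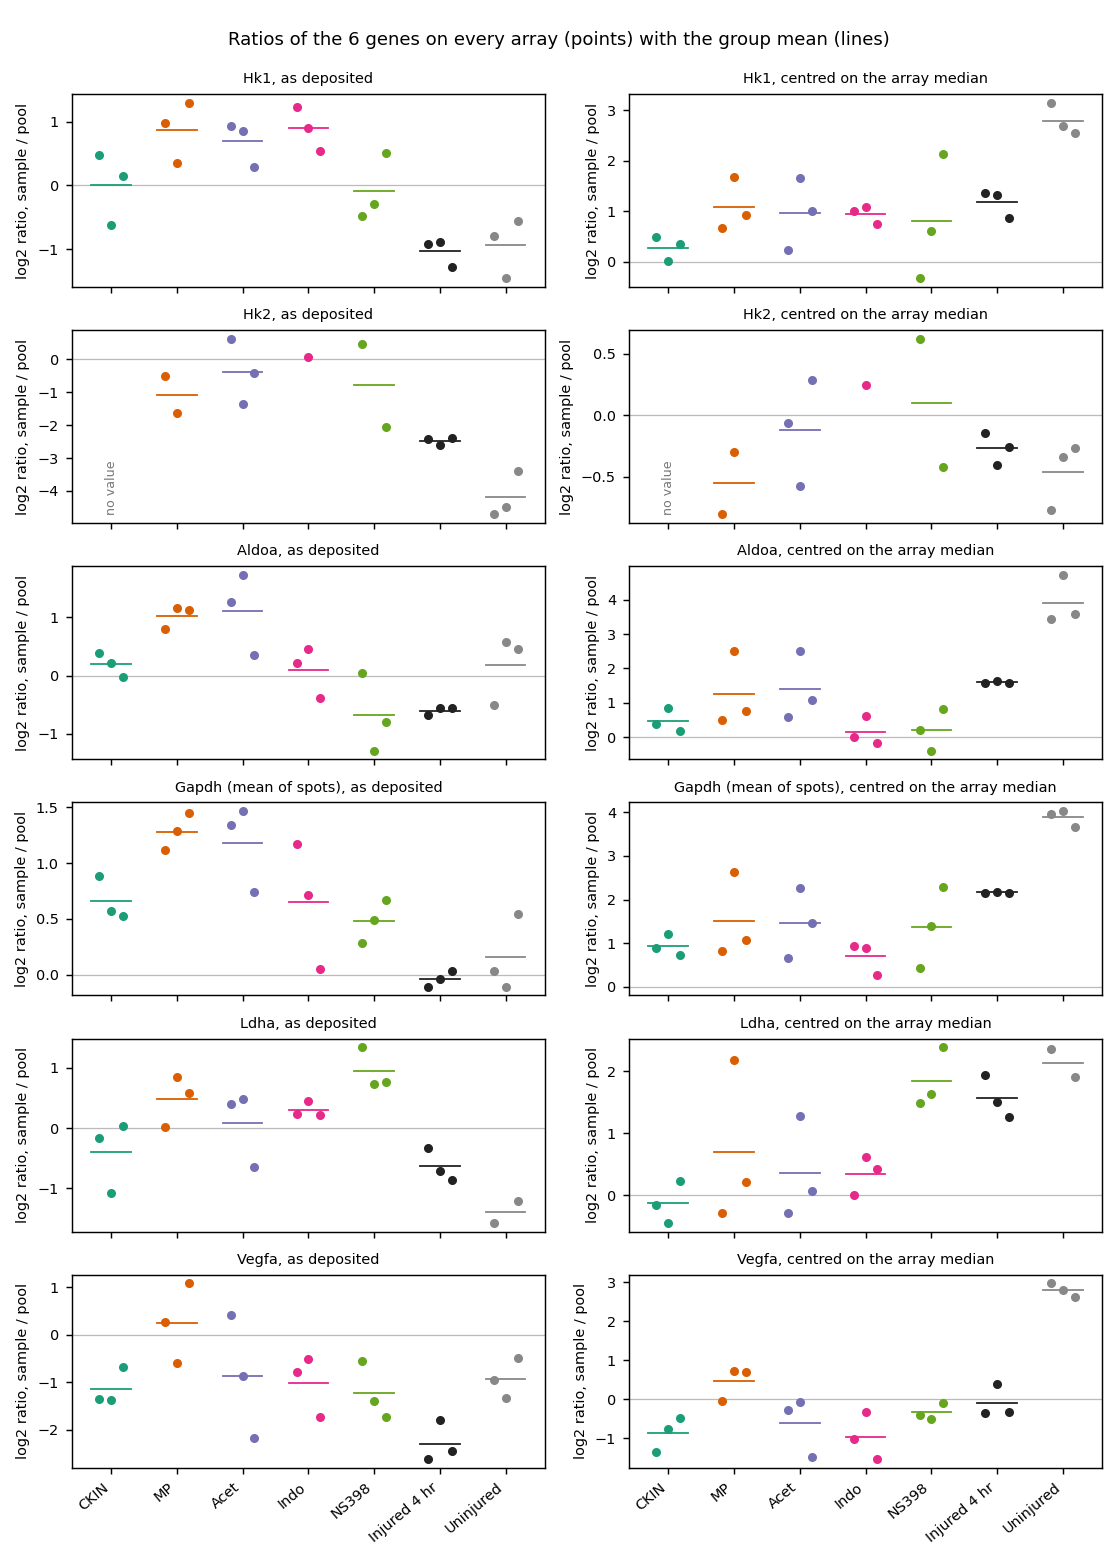
Log2 ratio of sample over pool for the 6 genes by group, as deposited (left column) and centred on the array median (right column). Points are arrays in replicate order, lines are means of groups with at least 2 values, and the y axes differ between panels. In centred ratios Hk1, Aldoa, Gapdh and Vegfa are highest on the 3 Uninjured arrays, and Hk2 has no value in CKIN.

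Cord dissected and kept in culture was compared with cord fresh from dissection, Injured 4 hr minus Uninjured. Vegfa fell most among the 6 genes, and Aldoa, Gapdh and Hk1 fell with it in centred ratios, while Ldha and Hk2 did not pass the test. Vegfa changed by -2.89 ± 0.39 (SE, limma adjusted p = 7.3e-05), with Injured 4 hr at -0.09 and Uninjured at 2.80. Aldoa changed by -2.31 ± 0.51 (adjusted p = 0.0044), Gapdh by -1.72 ± 0.47 (adjusted p = 0.017) and Hk1 by -1.62 ± 0.46 (adjusted p = 0.022). In each of these 4 genes every Injured 4 hr array lay below every Uninjured array. How many of all probes had groups that did not overlap was not counted, here or in the comparisons below. Such a gap between groups therefore only describes the gene it is given for.

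Of the 8 probes of the 6 genes, 5 passed the test, all lower, against 14.3% of the 4823 probes tested (13.5% lower, 0.809% higher). Besides the 4 genes above, Gapdh probe 3B07 passed at -1.81 ± 0.58 (adjusted p = 0.038), and probe 3B05, measured on 2 Uninjured arrays, came to -1.73 ± 0.74 (adjusted p = 0.13). Ldha differed by -0.56 with an interval of -1.73 to 0.60, and Hk2 by 0.19 with an interval of -0.58 to 0.96. The median of the 8 probes was -1.73, and that of all probes -0.04.

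After the brightness correction, 3 of the 8 probes passed, all lower, against 7.38% of all probes (4.75% lower). Vegfa was at -3.04 ± 0.37 (adjusted p = 3.2e-05), Aldoa at -1.35 ± 0.33 (adjusted p = 0.016) and the Gapdh mean at -0.83 ± 0.22 (adjusted p = 0.023). Hk1 no longer passed, at -0.64 ± 0.33 (adjusted p = 0.28), and Ldha came to 0.30 ± 0.37 (adjusted p = 0.74). The Vegfa difference was thus as large with the correction as without it. Vegfa lay near the middle of the proxy, at the percentile 46.5, where the correction moved its Uninjured mean little (2.80 before, 3.04 after). The size of its corrected difference is therefore no separate support. As deposited, where the shift of the median of all probes alone is 1.47, Vegfa differed by -1.37 ± 0.58 (adjusted p = 0.052), Gapdh by -0.20 and Hk1 by -0.09, and Hk2 passed the other way, at 1.72 (adjusted p = 0.039), 1 of 8 probes where 50.3% of all probes passed (50.1% higher).

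After quantile normalization 0 of the 8 probes passed: Vegfa was at -1.66 (adjusted p = 0.10) and Aldoa at -1.07 (adjusted p = 0.64), and 20 probes in all passed. With the median taken over probes measured on all arrays 2 passed, Vegfa at -2.003 and Aldoa at -1.42. In centred ratios, leaving out any 1 of the 6 arrays kept the calls of Vegfa (-3.14 to -2.76) and Aldoa (-2.55 to -1.90). The Gapdh call was lost without any 1 Injured 4 hr array or without Uninjured replicate 2 (-1.73 to -1.65). That of Hk1 was lost without any 1 array other than Uninjured replicate 3 (-1.70 to -1.44), and that of probe 3B07 without any 1 of the 6 (-1.96 to -1.57).

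**Figure D3:**
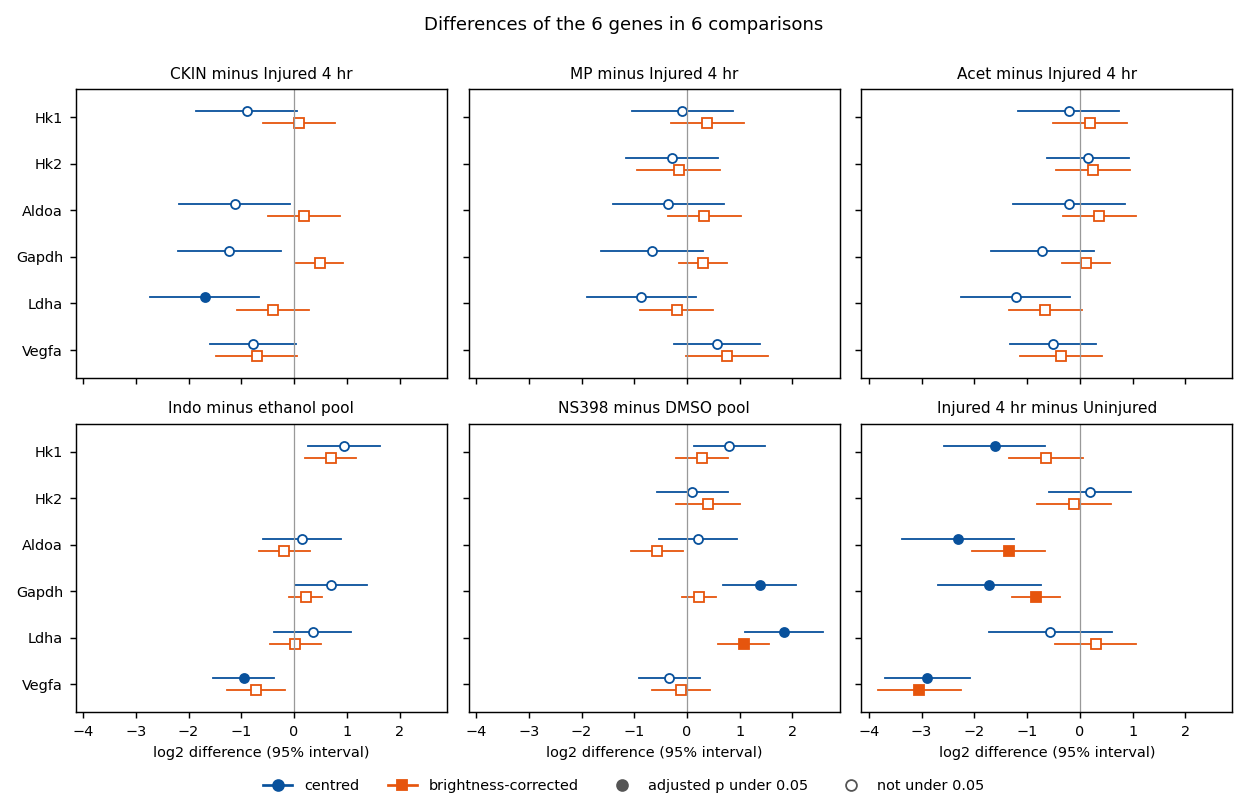
Log2 difference of each of the 6 genes in 6 comparisons, with the 95% interval from the fit across all probes. Circles are centred and squares brightness-corrected ratios, and filled symbols passed at an adjusted p under 0.05. Vegfa in Injured 4 hr minus Uninjured lies near -3 on both scales, while most enzyme differences shrink towards 0 after the correction.

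A measure that needs no array median is the difference of a gene from Gapdh on the same array. Vegfa lay below Gapdh by this measure on every array, at -2.51, -1.77 and -2.49 in Injured 4 hr and -1.0, -1.23 and -1.03 in Uninjured. The Vegfa groups did not overlap and differed by -1.17 (adjusted p = 0.059 with all ratios centred on Gapdh). Ldha relative to Gapdh was -0.22, -0.67 and -0.90 in Injured 4 hr and -1.61 and -1.76 in Uninjured, and its difference of 1.09 passed in that fit (adjusted p = 0.045). Hk2 was at -2.31, -2.58 and -2.42 in Injured 4 hr and -4.75, -4.37 and -3.93 in Uninjured, a difference of 1.92 (adjusted p = 0.033). In that fit 2939 probes in all passed, 99.6% of them higher, so a pass upward was not particular to Ldha and Hk2. Hk1 differed by 0.11 (adjusted p = 0.79). A ratio to Gapdh shows unequal change and does not say which of the 2 genes changed. The sign of the Ldha and Hk1 differences depended on what the arrays were scaled to, and so did that of Hk2, at -0.11 after the brightness correction. Vegfa was lower in Injured 4 hr on every scale tried, but its call was lost as deposited, after quantile normalization and relative to Gapdh.

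**Figure D4:**
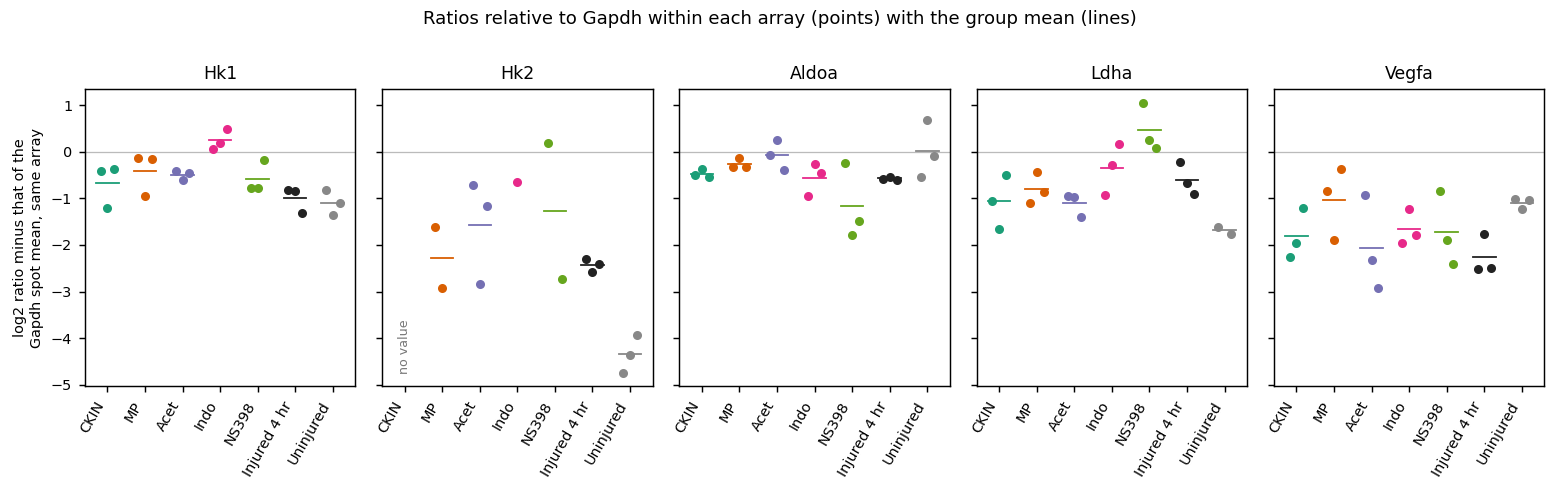
Log2 ratio of each gene minus that of the mean Gapdh spot on the same array, by group. Points are arrays and lines are means of groups with at least 2 values. Injured 4 hr lies below Uninjured in Vegfa and above it in Ldha and Hk2.

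A list of glycolysis genes, which includes the enzymes above, was counted too. Of 34 probes for 32 measured genes of glycolysis and glucose or lactate transport, 13 fell, 0 rose and 21 did not pass in Injured 4 hr against Uninjured. Without the 5 enzymes 9 of 27 probes fell, where 13.5% of all probes were lower. The list median was -0.46 with them and -0.17 without them, beside -0.04 for all probes. After Aldoa, the largest falls were in the enolase gene Eno1 at -2.08 ± 0.45 (adjusted p = 0.0039), in Pfkm, the muscle-type phosphofructokinase, at -1.93 ± 0.37 (adjusted p = 0.0018), and in Eno2, the neuronal enolase, at -1.89 ± 0.36 (adjusted p = 0.0014). These 4 genes and the Gapdh mean were also the 5 probes that fell after the brightness correction, where Pfkm was at -1.95 and Eno2 at -0.92. 

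In the list of hypoxia and VEGF genes, 5 of 30 probes fell and 1 rose in centred ratios, and without Vegfa 4 of 29 fell. These shares lie near the 13.5% of all probes that were lower, so the values below describe single genes and not the list. The falls were Vegfa, then Hif1a, the oxygen-regulated subunit of HIF-1, at -1.71 ± 0.36 (adjusted p = 0.0029), both probes of the related growth factor gene Vegfb at -1.39 and -1.20, and Vhl, which marks HIF-1 for destruction, at -1.37. Hmox1, a heme-degrading stress enzyme, rose by 2.06 ± 0.65 (adjusted p = 0.037). The list median was -0.13, beside -0.04 for all probes. After the correction Vegfa and Hif1a (-1.20 ± 0.32, adjusted p = 0.027) were the probes that fell, and Hmox1 (2.87 ± 0.50, adjusted p = 0.0018) and the vasodilator peptide gene Adm (1.64 ± 0.32, adjusted p = 0.0048) those that rose. Adm and Hmox1 are known targets of HIF-1, as Vegfa is.

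**Figure D5:**
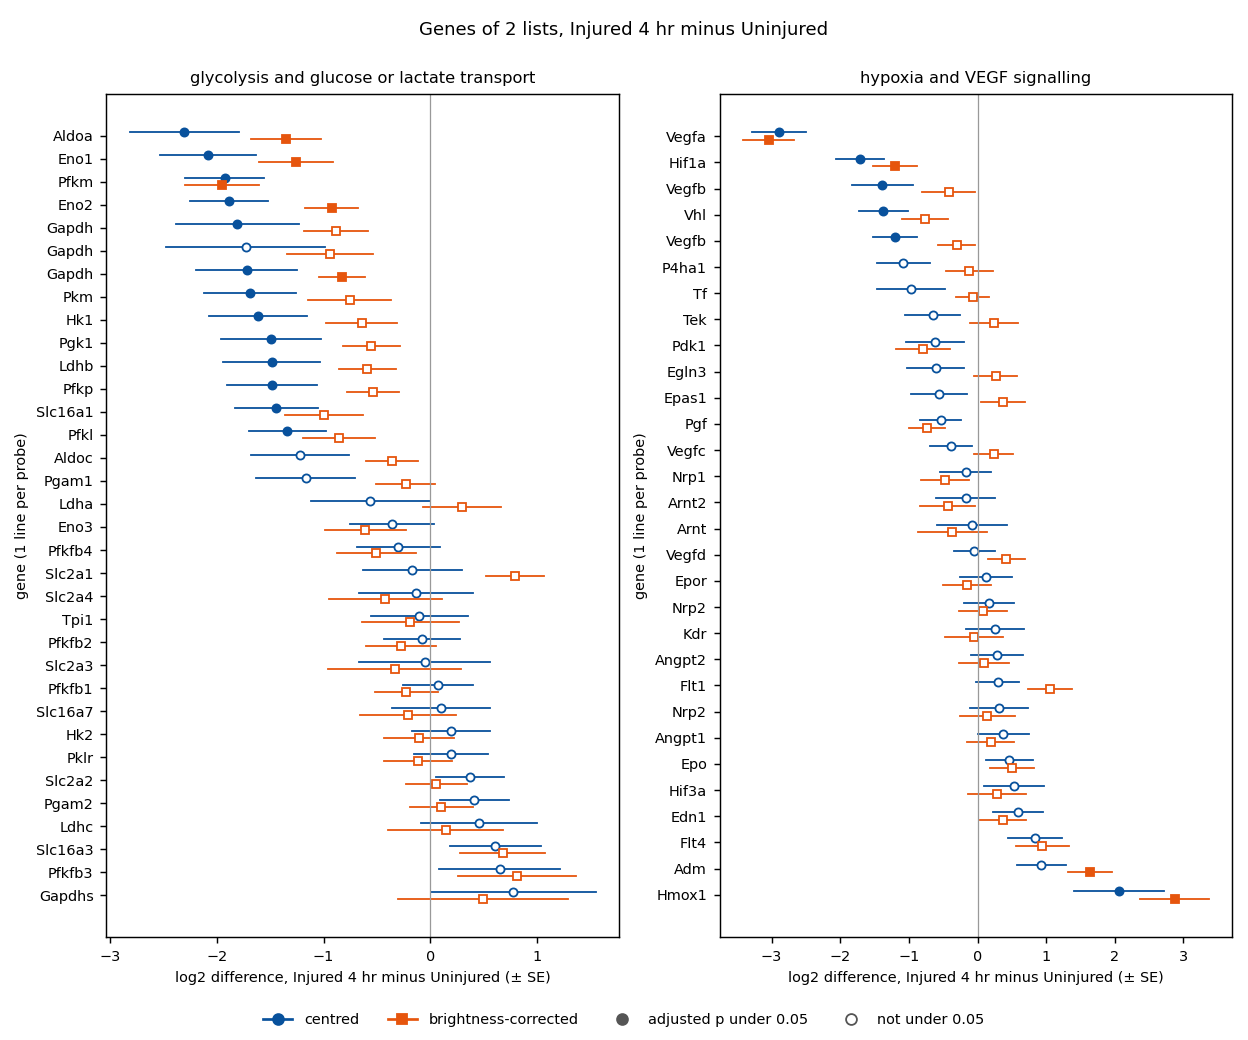
Log2 difference with its SE, Injured 4 hr minus Uninjured, for each probe of the glycolysis list (left) and the hypoxia and VEGF list (right). Circles are centred and squares brightness-corrected ratios, and filled symbols passed at an adjusted p under 0.05. Aldoa and Vegfa head the falls, and Hmox1 at 2.06 in centred ratios is the only filled circle above 0.

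Markers of some cell types moved in the same comparison, where 13.5% of all probes were lower and 0.809% higher. Some genes are on a marker list and on a list above, and are counted in both. They are Eno2 (neuronal) and Aldoc (astrocyte) in glycolysis, and Kdr, Flt1 and Tek (endothelial) in hypoxia and VEGF. Of 9 probes for neuronal markers, 5 fell, with a list median of -1.89, among them Snap25 at -3.19 and Stmn2 at -2.81. The other 4 did not pass, among them Syt1 at -0.64 and 1 Nefl probe at -0.60. Of 7 astrocyte probes 4 fell (median -1.55), and of 7 oligodendrocyte probes 1 fell (median -1.42), which is near the share of all probes. Among 4 microglia and macrophage probes, 5 endothelial probes, 1 blood probe and 5 fibroblast and meningeal probes, 0 passed in limma (1, 0, 0 and 2 at an unadjusted p under 0.05), with medians of 0.44, 0.27, 0.07 and -0.79. Unadjusted, 1397 of all 4823 probes passed. After the correction the neuronal and astrocyte counts were again 5 and 4, and 1 of the 4 microglia and macrophage probes and the blood probe rose. Of all probes 4.75% were then lower and 2.63% higher. Ratios to a pool hold no level, so whether a marker was absent from a sample could not be read. Fewer cells of a type and less RNA per cell cannot be told apart in such bulk samples, and the part of these markers in the falls of Vegfa and the enzymes was not tested.

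The next comparisons ask whether a compound changed the cultures, with Injured 4 hr on the same PBS pool as control. With CKIN, Ldha fell by 1.69 ± 0.50 on the log2 scale in centred ratios (adjusted p = 0.024), at -0.13 in CKIN against 1.57 in Injured 4 hr. Gapdh probe 3B07 fell by 1.62 ± 0.57 (adjusted p = 0.048). The Gapdh mean at -1.23 (adjusted p = 0.066), Aldoa at -1.13, Hk1 at -0.90 and Vegfa at -0.77 (adjusted p = 0.17) did not pass. In each the CKIN arrays all lay below the Injured 4 hr arrays. The share of all probes that did so was not counted, and the median difference of all probes was -0.38. Of the 7 probes tested 2 passed, both lower, where 20% of all 3737 probes passed and 18.6% were lower. Hk2 could not be tested.

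None of these differences passed after the brightness correction, where 2.60% of all probes did. At an unadjusted p under 0.05 the Gapdh mean alone did, 1 of 7, where 621 of all 3737 probes did. Brightness-corrected Ldha was at -0.40 ± 0.33 and Vegfa at -0.71 ± 0.37, while the Gapdh mean was at 0.49 ± 0.21 (adjusted p = 0.25). As deposited all 7 differences were positive, and 1 of them passed, that of Hk1, at 1.03 (adjusted p = 0.043), where 59.7% of all probes were higher. With the arrays that missed many spots as a block, Ldha was at -0.46 (adjusted p = 0.79). The Ldha call was lost without CKIN replicate 2 or any 1 Injured 4 hr array (-1.85 to -1.51), and that of 3B07 without any 1 array other than CKIN replicate 2 (-1.80 to -1.39). In the glycolysis list 11 of 30 probes fell and 0 rose. The glucose transporter gene Slc2a1 at -1.75, Eno1 at -1.70, Ldha and the phosphoglycerate kinase gene Pgk1 at -1.69 led them, and 0 of the 30 passed after the correction (4 at an unadjusted p under 0.05). Hmox1 at -2.53, the transferrin gene Tf at -1.73 and the prolyl hydroxylase gene Egln3 at -1.11 fell in the hypoxia and VEGF list of 22 probes, also with 0 left after the correction (2 unadjusted). These 3 of 22 probes lie under the 18.6% of all probes that were lower, so they describe single genes and not the list. Markers moved here too: 1 of 9 neuronal, 4 of 7 astrocyte and 4 of 7 oligodendrocyte probes fell in centred ratios, with 1 of 4 fibroblast and meningeal probes. After the correction 1 neuronal probe and the blood probe were the marker probes that passed, both higher. The part of the markers in the enzyme differences was not tested.

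With MP, 0 of the 8 probes passed in limma, against 2.05% of 4392 probes. At an unadjusted p under 0.05 it was 0 of the 8 too, where 770 of all 4392 probes passed. Vegfa was at 0.56 ± 0.39 (interval -0.25 to 1.38), the only member with a positive centred difference, Ldha at -0.86 ± 0.50 and Gapdh at -0.66 ± 0.47. MP replicate 2, which has few missing spots, stood apart from the other MP arrays: Ldha was 2.19 there, against -0.29 and 0.21, and without it Ldha passed at -1.61 (adjusted p = 0.016). The number of all probes that passed also changed widely with the array left out, as given in the last section. After the brightness correction 0 of the 8 probes passed (0 also unadjusted), where 1.48% of all probes did (650 of 4392 unadjusted). As deposited, where the median of all probes shifts by 1.66, 7 of the 8 probes were higher than in Injured 4 hr, along with 72.2% of all probes. In centred ratios 0 of 31 glycolysis and 0 of 30 hypoxia and VEGF probes passed (5 and 8 at an unadjusted p under 0.05). Marker probes did not pass either. At an unadjusted p under 0.05, 4 of 7 astrocyte, 2 of 7 oligodendrocyte, 1 endothelial, 1 blood and 1 fibroblast and meningeal probe did. Beside these counts and those of the glycolysis and the hypoxia and VEGF lists stand the 770 of 4392 for all probes. After the correction 2 of 9 neuronal probes rose, 1 Nefl probe at 1.65 and Nefm at 1.27, where 0.205% of all probes were higher. The part of the markers in the MP differences was not tested.

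Acet gave the same count, 0 of 8 probes in limma (1, Ldha, at an unadjusted p under 0.05), against 1.31% of 4735 probes. At that unadjusted threshold 635 of all 4735 probes passed. After the brightness correction 0 of the 8 passed again (0 unadjusted), against 0.718% of all probes (0.0634% higher, 0.655% lower). Of all 4735 probes 573 passed unadjusted there. Ldha was at -1.22 ± 0.50 (interval -2.25 to -0.18, adjusted p = 0.26), Gapdh at -0.71 ± 0.47, Vegfa at -0.51 ± 0.39, and Aldoa, Hk1 and Hk2 at -0.21, -0.22 and 0.15. As deposited 7 of the 8 were higher, with a median shift of 1.64 and 71.2% of all probes higher. In centred ratios 0 of 34 glycolysis and 0 of 30 hypoxia and VEGF probes passed (4 and 4 unadjusted). Among the markers 2 of 5 fibroblast and meningeal probes fell, where 1.20% of all probes were lower. They were Col1a2 at -2.44 and 1 Col1a1 probe at -1.56. Both fell after the correction too, at -2.05 and -1.37, with the blood probe Hbb at -1.18. The part of the markers in the Acet differences was not tested.

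The Indo and NS398 arrays were set against their own vehicle pools, with no unpooled vehicle culture among these samples, so the ratio itself was tested against 0. The spread of the pool is outside that test, and the offset of the enzymes in like RNA against like RNA, given above, stands beside it. With Indo, Vegfa was below the ethanol pool, at -0.96 ± 0.28 (adjusted p = 0.023). It was the 1 probe of 7 to pass, where 13.3% of 3804 probes passed, 10.7% lower. Hk1 at 0.95 ± 0.33 (adjusted p = 0.058), Gapdh at 0.70 ± 0.33 (adjusted p = 0.18), Ldha at 0.35 and Aldoa at 0.15 did not pass.

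The Vegfa call with Indo was lost without Indo replicate 1 (-0.93, adjusted p = 0.11) or replicate 3 (-0.67, adjusted p = 0.23), after the brightness correction (-0.73 ± 0.26, adjusted p = 0.079) and against the Injured 4 hr arrays (-0.87, adjusted p = 0.13). After the correction 0 of 7 probes passed in limma (3 at an unadjusted p under 0.05), where 12% of all probes did (3.54% higher, 8.43% lower). Unadjusted, 956 of all 3783 probes passed there. As deposited 0 of 7 passed (3 unadjusted), where 7.60% did (0.605% higher, 6.99% lower). On that scale 650 of all 3804 probes passed unadjusted. Against the Injured 4 hr arrays centred Gapdh was at -1.46 (adjusted p = 0.038), with the sign opposite to that against the pool. In the hypoxia and VEGF list 3 of 25 probes fell and 0 rose in centred ratios. That lies near the 10.7% of all probes that were lower, so the values describe single genes and not the list. Besides Vegfa they were the vessel-stabilising ligand gene Angpt1 at -1.70 ± 0.32 and the VEGF receptor gene Kdr at -1.19 ± 0.37. Angpt1 fell after the correction too, at -1.43 ± 0.29, and the placental growth factor gene Pgf rose by 0.59. Of 28 glycolysis probes 1 fell and 1 rose in centred ratios, where 10.7% of all probes were lower and 2.60% higher. The insulin-regulated glucose transporter gene Slc2a4 fell (-2.62 ± 0.46) and the lactate transporter gene Slc16a1 rose (1.10 ± 0.28), and both passed after the correction as well. Among the markers 1 of 9 neuronal probes rose and 1 of 5 endothelial probes fell in centred ratios, the latter being the Kdr probe given above. The part of the markers in the Indo differences was not tested.

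With NS398, Ldha was higher than in the DMSO pool by 1.84 ± 0.35 (adjusted p = 0.0011), and Gapdh by 1.38 ± 0.33 (adjusted p = 0.0057). These were 2 of 8 probes, where 22.0% of 4487 probes passed and 10.7% were higher. Vegfa was at -0.34 ± 0.28, Aldoa at 0.21 ± 0.36 and Hk1 at 0.80 ± 0.33 (adjusted p = 0.082). Ldha passed after the brightness correction, at 1.08 ± 0.23 (adjusted p = 0.0052, where 13.1% of all probes passed, 4.99% higher), as deposited, at 0.95 (adjusted p = 0.019, where 44.1% passed, 1.18% higher and 42.9% lower), and without any 1 NS398 array (1.56 to 2.01). As deposited Vegfa passed too, lower, at -1.23 (adjusted p = 0.021). Gapdh did not pass after the correction, at 0.22 ± 0.15 (adjusted p = 0.38), or without NS398 replicate 3, at 0.91 (adjusted p = 0.10). Without NS398 replicate 1, Hk1 at 1.37 and Gapdh probe 3B05 at 1.77 passed too. The counts of all passing probes without single arrays are given in the last section. In like RNA against like RNA, Ldha and Gapdh passed as well (1.57 and 2.16, where 22.1% of 4866 probes passed, 21% higher), and against those arrays Ldha was at 0.27 (adjusted p = 0.81) and Gapdh at -0.79 (adjusted p = 0.35).

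Relative to Gapdh on the same array, Ldha was 1.05, 0.25 and 0.09 in NS398, against -0.22, -0.67 and -0.90 in Injured 4 hr, so the groups did not overlap, and the value in NS398 replicate 1 was the highest. Its mean of 0.46 differed from 0 with adjusted p = 0.14. Of 32 glycolysis probes 7 rose and 1 fell in centred ratios, led by Ldha, Slc2a1 (1.39 ± 0.33), Gapdh and the second lactate dehydrogenase subunit gene Ldhb (1.14 ± 0.32), while Pklr, the liver-type pyruvate kinase gene, fell (-0.76 ± 0.25). Of all probes 10.7% were higher and 11.3% lower. After the correction, where 4.99% of all probes were higher and 8.14% lower, 3 glycolysis probes rose and 1 fell. Those that rose were the triosephosphate isomerase gene Tpi1 at 1.22 ± 0.32, Ldha and Slc2a1 at 0.66 ± 0.19, and Eno1 fell, at -0.89 ± 0.22. In the hypoxia and VEGF list without Vegfa, 3 of 25 probes rose and 2 fell in centred ratios. These shares lie near those of all probes, so the values below describe single genes and not the list. Hmox1 rose by 2.57 ± 0.41 (adjusted p = 2.0e-04), and by 1.56 ± 0.32 after the correction. P4ha1, a collagen hydroxylase gene, rose by 1.08 and the angiopoietin receptor gene Tek by 0.95, and the receptor genes Nrp2 and Kdr fell, at -1.25 and -1.22. Markers moved as well, and their part in the NS398 differences was not tested. In centred ratios 3 of 5 fibroblast and meningeal probes rose, as did 1 of 9 neuronal, 2 of 7 astrocyte, 2 of 7 oligodendrocyte, 1 of 5 endothelial and the blood probe (Hbb at 1.25), while 1 endothelial probe fell. The endothelial probes that passed were those of Tek and Kdr given above. After the correction the same number of fibroblast and meningeal probes rose, 3 of 5, and 4 of 9 neuronal probes fell, Nefm at -1.30 and Snap25 at -1.17 among them, with 1 astrocyte and 1 oligodendrocyte probe.

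Treatments were also set against each other, a choice made after the values were seen. Vegfa was higher in MP than in CKIN by 1.34 ± 0.39, with no overlap of the arrays, but did not pass (adjusted p = 0.14), and 0 of 3634 probes did in limma (552 at an unadjusted p under 0.05). MP exceeded Acet in Vegfa by 1.07 ± 0.39 (adjusted p = 0.63). The ratio of Ldha was higher in NS398 than in Indo by 1.49 ± 0.50, again without overlap (adjusted p = 0.21), and their pools differ. In these 4 added comparisons, Acet against CKIN being the fourth, 0 probes of the 6 genes passed (3 at an unadjusted p under 0.05, the 3 differences just given), against 0, 0.0228%, 0.160% and 0.435% of all probes in MP minus CKIN, MP minus Acet, Acet minus CKIN and NS398 minus Indo. Unadjusted, 552 of 3634, 275 of 4380, 655 of 3751 and 407 of 3682 probes passed, in that order. The comparisons with Injured 4 hr share its 3 arrays, so their differences are not independent of each other.

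The probes most like each member over the arrays, by Pearson correlation of centred ratios, are a description, since all share the array medians. Gapdh was most like the tubulin gene Tuba1a (r = 0.988), Oaz1 (0.988) and Slc25a3 (0.985) over 21 arrays, where the median over candidate probes was 0.729. Aldoa was nearest to the mitochondrial channel gene Vdac1 (0.975), the ATP synthase gene Atp5f1b (0.969) and the prion protein gene Prnp (0.967), and Hk1 to Surf1 (0.925), the phosphofructokinase gene Pfkp (0.922) and Ywhab (0.921). Vegfa was nearest to Tmprss11d (0.946), the neuronal gene Stmn2 (0.944) and Fkbp1b (0.905), with a median of 0.626. For Ldha, over 20 arrays, the nearest were the stress transcription factor gene Atf4 (0.920), the intermediate filament gene Vim (0.912) and the antioxidant enzyme gene Sod2 (0.905). Hk2, over 14 arrays, had no close match: Bbox1 at 0.688 was the nearest and the median was -0.365.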

How the data were processed

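The deposited table holds 1 column of log2 ratios (sample over vehicle pool) per array for 5376 probes. The authors gave no log base, dyes, scanner, background correction or normalization in the sources used here, so the log2 scale was read from the values, and the 0 on an array has no stated meaning. Blank cells were treated as missing spots. Array correlations of the deposited ratios lay between 0.0665 and 0.918, so no array was turned round. Symbols came from the platform annotation and were updated by gene identifier for 4375 of 4423 probes with 1 symbol, and 2 probes with several symbols were left unnamed.

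The 51 Gapdh corner spots were averaged on each array, giving 4912 rows with a value, and the median of each array was then subtracted. One limma fit (limma 3.58.1, R 4.3.3) covered all 21 arrays with 1 coefficient per group, tests were 2-sided, and p-values were adjusted by Benjamini-Hochberg over every probe with at least 2 of 3 arrays in each compared group, at a threshold of 0.05. Errors of differences are SEs, and intervals are 95% intervals. The brightness correction used loess (span 0.4, degree 1, robust). The fit was tested on simulated data.

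The members and gene lists were chosen with earlier results of these data known. Named besides the members were, per comparison, up to 4 passing probes per direction with the largest change in the glycolysis and the hypoxia and VEGF lists, and 3 probes of most similar pattern per member. Every result was recomputed under other scalings, filters and fits and with single arrays left out.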

Additional observations from a re-analysis of the deposited data

How the results depend on the processing

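Counts of passing probes among all probes and among the member probes depended strongly on the scaling and on the arrays. In centred ratios they were 690 and 5 for Injured 4 hr minus Uninjured, 749 and 2 for CKIN, 90 and 0 for MP, 62 and 0 for Acet, 507 and 1 for Indo, and 986 and 2 for NS398. Without centring they were 2428 and 1, 2232 and 1, 3171 and 7, 3372 and 7, 289 and 0, and 1977 and 2. With centring on probes measured on all arrays the first comparison had 1844 and 2, CKIN 414 and 0, and Indo 2 member probes. Quantile normalization gave 20 and 0 for Injured 4 hr, 1 member probe for CKIN, 35 probes for MP, and 899 and 3 for Indo. The brightness correction gave 356 and 3, CKIN 97 and 0, Acet 34 probes, Indo 0 member probes, and NS398 587 and 1. Fitting the compared groups alone gave 1825 probes for Injured 4 hr, 6 member probes for CKIN, 24 probes for MP, 131 for Acet, 289 and 0 for Indo, and 125 and 1 for NS398. With complete probes alone Indo had 2 member probes. Centring on Gapdh, chosen after seeing the data, gave 2939 and 2, CKIN 87 and 0, MP 2 probes, Acet 5 probes, Indo 935 and 2, and NS398 3545 and 4. Against the PBS pool itself CKIN had 1 member probe, MP 1374 and 5, and Acet 1443 and 5. Against the Injured 4 hr arrays Indo had 2 member probes and NS398 153 and 0. With the many-missing arrays as a block CKIN had 6 and 0 and MP 33 probes. The share of higher calls among all passing probes moved with the scaling. In Injured 4 hr minus Uninjured it was 5.65% in centred ratios, 99.4% in deposited ratios, 91.1% when centred on probes of all arrays, 70.0% after quantile normalization, 35.7% after the brightness correction and 99.6% when centred on Gapdh. For CKIN it was 7.34% centred, 100% deposited, 52.2% on probes of all arrays, 25.2% quantile and 92.0% on Gapdh. For MP the centred share was 2.22%, against 100% deposited, 13.6% on probes of all arrays, 25.7% quantile, 13.8% brightness-corrected and 100% on Gapdh. For Acet the centred share was 8.06%, against 100% deposited, 34.0% quantile and 100% on Gapdh. For Indo it was 19.5% centred, 7.96% deposited, 52.8% quantile, 29.6% brightness-corrected and 0.749% on Gapdh. For NS398 it was 48.6% centred, 2.68% deposited, 24.6% on probes of all arrays, 59.2% quantile, 38.0% brightness-corrected and 0.677% on Gapdh. Without single arrays the counts ran from 354 to 493 and 2 to 4 (Injured 4 hr), 205 to 549 and 0 to 1 (CKIN), 3 to 598 and 0 to 1 (MP), 0 to 122 and 0 to 0 (Acet), 298 to 379 and 0 to 1 (Indo), and 481 to 962 and 1 to 4 (NS398). Outside the fits without single arrays, 116 of 425 recomputed member differences had the opposite sign: 26 of 46 as deposited, 20 of 46 brightness-corrected, 22 of 40 centred on Gapdh, 18 of 23 against the PBS pool, 12 of 23 with the many-missing block, 10 of 15 against Injured 4 hr, and 4 of 46 each after quantile normalization and on probes of all arrays. In 83 neither fit passed, and the 33 where at least 1 did were the following. In Injured 4 hr minus Uninjured, centring on Gapdh gave Ldha 1.09 and Hk1 0.11. In deposited ratios CKIN had Gapdh probe 3B07 at 0.31, Ldha at 0.23 and Hk1 at 1.03, and against the PBS pool 3B07 at 0.32. In deposited ratios MP had the Gapdh mean at 1.32, 3B05 at 1.43, 3B07 at 1.25, Ldha at 1.12, Aldoa at 1.63 and Hk1 at 1.90, and against the PBS pool Gapdh at 1.50, 3B05 at 1.48, 3B07 at 1.20, Aldoa at 1.24 and Hk1 at 1.09. In deposited ratios Acet had Gapdh at 1.22, 3B05 at 1.39, 3B07 at 1.44, Vegfa at 1.42, Aldoa at 1.72 and Hk1 at 1.72, and against the PBS pool Gapdh at 1.46, 3B05 at 1.49, 3B07 at 1.44, Aldoa at 1.39 and Hk1 at 0.96. Against Injured 4 hr the Gapdh mean was at -1.46 for Indo and -0.79 for NS398. Centred on Gapdh, NS398 had 3B07 at -0.67, Aldoa at -1.17 and Hk1 at -0.57. The replicate numbers did not pair the arrays (correlations of same-numbered deviations -0.0824 to 0.0512), and the replicate block gave 711, 785, 121, 86, 519 and 1010 probes, with 5, 3, 0, 0, 1 and 2 member probes. The cause of these changes was not tested, apart from the median shifts given with the deposited ratios. Signal over background was not used here, so what it limits is not known.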
